A study of Mus musculus with 8 samples.

Results

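Ephrins and semaphorins are guidance ligands, and Eph receptors, plexins and neuropilins are the receptors that read them. The 53 genes described here were chosen by name alone, as the protein-coding genes of the deposited count table called Efna, Efnb, Epha, Ephb, Sema, Plxna, Plxnb, Plxnc, Plxnd or Nrp with a number. They are 53 of 54532 genes in the table and of its 22046 protein-coding genes. There were 28 ligands (5 ephrin-A, 3 ephrin-B and 20 semaphorin genes) and 25 receptors (9 EphA, 5 EphB, 9 plexin and 2 neuropilin genes).

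The study set mice lacking Nsun5, an enzyme that methylates a cytosine of ribosomal RNA, against wild-type mice, with myelin and sleep as the traits that its title names. The tissue is labelled brain, the animals were 3-month-old males, the KO group carried the Nsun5 knockout and the WT group was wild type, both from the same litter. Each genotype had 4 libraries of ribosome footprints, short RNA pieces protected by a bound ribosome, and 4 mRNA libraries with the same names in the same table. The protocol names 5 mice per genotype and the labels tie no library to an animal, so a p-value here reflects how much the libraries vary, which may be technical. The labels name neither the knockout allele nor a strain.

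Guidance ligands act on the growing tip of an axon, which turns toward or away from them. A-type ephrins are anchored to the membrane by a lipid and B-type ephrins span it, and Eph receptors are tyrosine kinases that signal on contact with the cell that carries the ligand. Signals also run back into the ephrin-bearing cell. Semaphorins are secreted or membrane-bound proteins that bind plexins, whose inner part switches off small GTPases, and the secreted class 3 semaphorins mostly need a neuropilin as co-receptor. In the adult brain these genes remain active in synapses and spines, in blood vessels and in the oligodendrocyte lineage that makes myelin.

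Footprint libraries held 586392 to 1296876 gene-assigned counts in KO and 1201263 to 3493841 in WT, and mRNA libraries 15642086 to 17829523. Protein-coding genes held 232530 to 847044 of the footprint counts in KO libraries and 791699 to 1467410 in WT libraries. Their share was uneven, with 369802 of 1236851 in KO library 1 and 791699 of 1201263 in WT library 1. The members took 0.258% to 0.292% of the protein-coding footprint counts in KO libraries and 0.270% to 0.291% in WT libraries. Nsun5 itself had 102, 124, 83 and 110 mRNA counts in KO libraries 1 to 4, against 91, 82, 103 and 109 in WT libraries 1 to 4. The knocked-out gene therefore did not separate the groups in mRNA counts, and whether the deletion lies inside the counted transcript is not given in the labels. WT libraries 1 and 2 stood apart in mRNA, at 28.4 and 27.01 on the first principal component (29.9% of the variance), while the other 6 libraries lay between -15.9 and -5.80. Genotype effects in mRNA are therefore also given without these 2 libraries for the 10 members with mRNA CPM listed per library.

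Levels of the guidance genes differed widely between members. The levels in this paragraph are the authors' RPKM, reads scaled by gene length and library size, which can be set against each other between genes. The highest ligand was Sema7a, a membrane-anchored semaphorin that signals through an integrin and plexin C1. Its mRNA was at 70.3, 76.7, 55.2 and 52.9 RPKM in KO libraries 1 to 4, and at 32.3, 31.3, 66.9 and 53.8 RPKM in WT libraries 1 to 4. WT libraries 1 and 2 lay below all others, while WT libraries 3 and 4 lay within the KO range. Next among ligands came Efnb3, the ephrin-B3 of the spinal midline, at 28.8 ± 3.37 RPKM in KO and 44.1 ± 5.54 RPKM in WT (mean ± SD, n = 4 each). Sema6b, a membrane-spanning ligand of plexin A proteins, averaged 34.6 ± 2.43 RPKM in KO and 33.1 ± 2.63 RPKM in WT. The highest receptor was Ephb6, an Eph receptor whose kinase is inactive, at 33.2 ± 4.50 RPKM in KO and 26.0 ± 7.12 RPKM in WT. Epha4, which binds ephrins of both types, followed at 23.8 ± 3.54 RPKM in KO and 20.9 ± 3.51 RPKM in WT. Plxnd1, the plexin D1 receptor of Sema3e, had 12.5 ± 1.52 RPKM in KO and 11.1 ± 1.26 RPKM in WT. The order of these means differed between and within the groups. Sema6b lay above Efnb3 in KO libraries 1 to 3, Efnb3 lay above Sema7a in WT libraries 1 and 2, and Epha4 lay above Ephb6 in WT library 1. At the low end, mRNA of 4 members averaged under 1 RPKM over all libraries, namely Efna4 at 0.122, Epha1 at 0.128, Epha2 at 0.365 and Sema3b at 0.956 RPKM. Those 4 were not tested for mRNA.

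**Figure D1:**
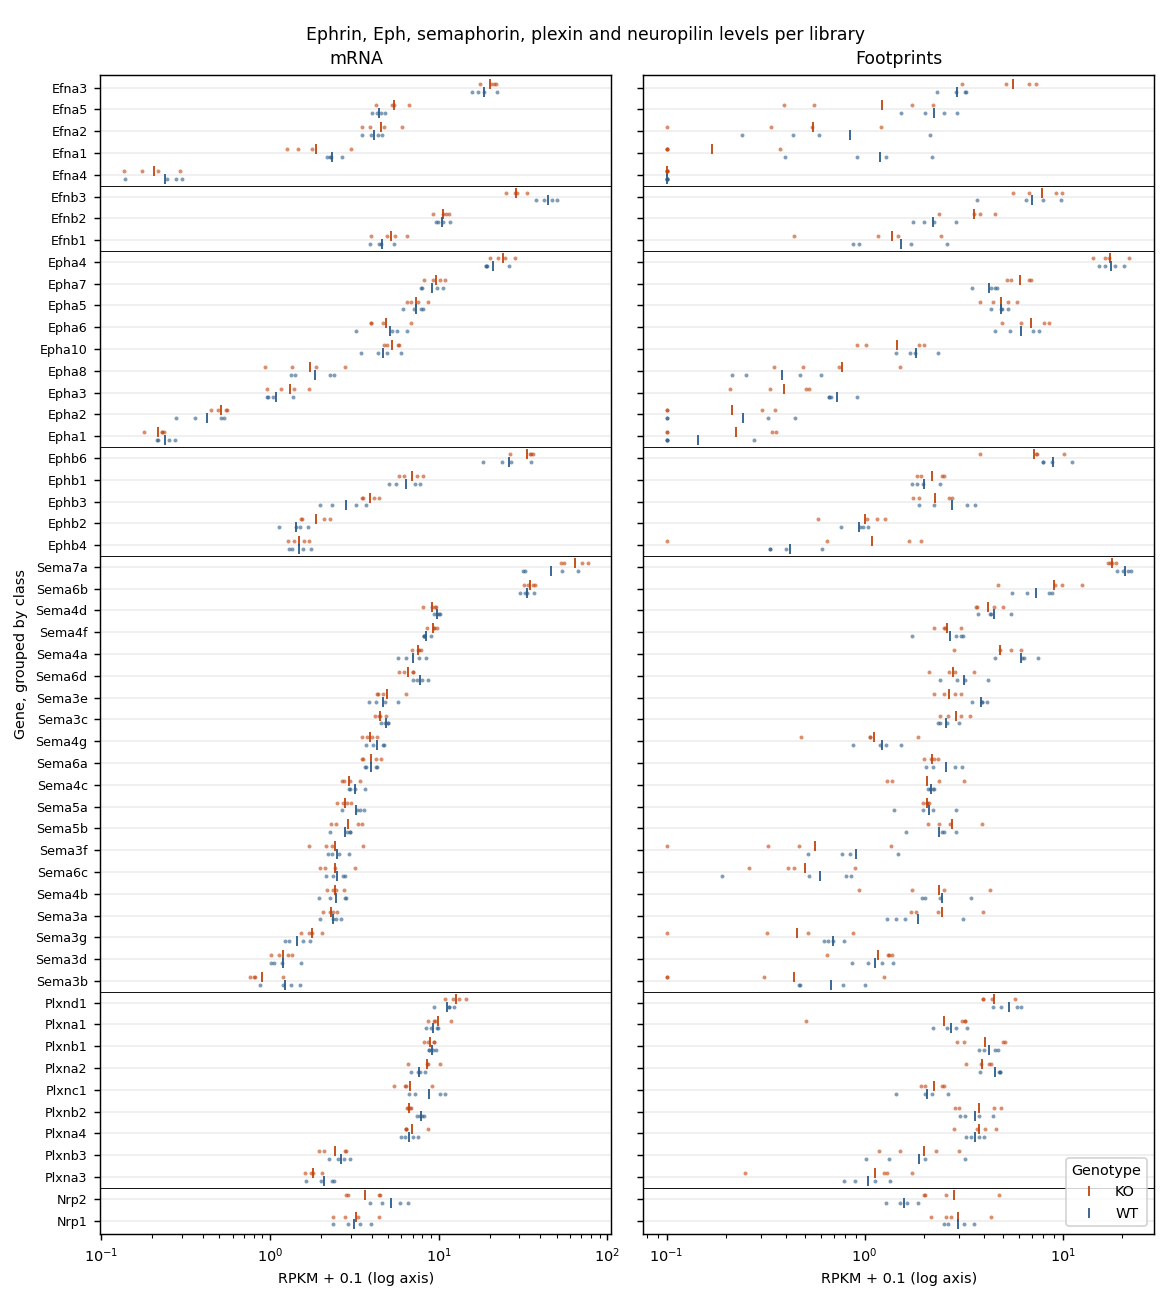
Mean level of each of the 53 members in KO and WT brain, in the authors' RPKM on a log axis, for mRNA and for footprints, with members grouped by class. Sema7a was the highest ligand in both kinds of library, Ephb6 the highest receptor in mRNA and Epha4 the highest receptor in footprints.

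Footprints gave another order among receptors. Epha4 had 16.2, 17.0, 21.4 and 14.1 RPKM in KO libraries and 16.3, 20.2, 15.1 and 18.4 RPKM in WT libraries. Its groups overlapped, and its mean stood above that of every other receptor. Ephb6 averaged 7.08 ± 2.58 RPKM in KO and 8.88 ± 1.47 RPKM in WT, and Epha6, another A-class Eph receptor, 6.83 ± 1.66 RPKM in KO and 6.06 ± 1.40 RPKM in WT (SD, n = 4 each). Ephb6 and Epha6 overlapped in KO, while in WT every Ephb6 value lay above every Epha6 value, and this order was not tested. Among ligands, Sema7a footprints averaged 17.6 ± 0.707 RPKM in KO and 20.5 ± 1.48 RPKM in WT. Sema6b footprints averaged 8.98 ± 3.25 RPKM in KO and 7.27 ± 1.57 RPKM in WT, and Efnb3 footprints 7.80 ± 2.03 RPKM in KO and 6.90 ± 2.58 RPKM in WT. Sema6b and Efnb3 overlapped in footprints.

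Footprints per mRNA were compared over genes that averaged 1 RPKM or more in both kinds of library. Among these, EphA genes had a higher median than ephrin-B genes. The median ratio of footprint RPKM to mRNA RPKM was 0.657 in KO and 0.663 in WT over 5 EphA genes, and 0.271 in KO and 0.205 in WT over 3 ephrin-B genes. Over 16 semaphorins it was 0.588 in KO and 0.639 in WT, over 8 plexins 0.453 in KO and 0.467 in WT, and over 9454 protein-coding genes 0.452 in KO and 0.459 in WT. The median was 0.307 in KO and 0.342 in WT over 3 EphB genes, and 0.243 in KO and 0.325 in WT over 2 ephrin-A genes. Over 2 neuropilins it was 0.842 in KO and 0.615 in WT. Epha6 had the highest ratios of the receptors named here, 1.44 in KO and 1.20 in WT. Members with low footprints were left out of the medians, among them Epha8, at 0.411 in KO and 0.164 in WT. These ratios are a description and were not tested between classes. The share of each transcript that is translated was not taken into account. The order of the classes is therefore not a measure of ribosome loading alone.

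Promoter sequences of the members were rich in CpG and in GC boxes, the element bound by Sp1 and its relatives. RefSeq promoter windows (GRCm38.p6, 250 bases before the start) matched 47 of the 53 members through 61 windows, and 11 genes had several. A GC box, searched as GGGCGG on either strand, was in 46 of the 61 windows (75.4%), against 42.6% of 21263 windows of protein-coding genes. TATAAA was in 1 window (1.64%, against 11.6%), CCAAT in 19 (31.1%, against 35.4%) and CACGTG in 3 (4.92%, against 6.63%), each on either strand, and overlaps between different motifs were left in. The median window held 16 CpG and 64.4% G or C, against 10 CpG and 55.6%. A match is a description of letters and not of binding, and windows of the same gene can overlap. Nrp2, Plxnb2 and Sema7a are shown because their values carry much of what follows. Nrp2 and Sema7a had mRNA and footprint differences of opposite sign, as had other members. Plxnb2 was a member whose mRNA groups did not overlap. Each window runs 5′ to 3′ on the gene's strand and stops at the deposited gene start, and capitals mark GGGCGG or its complement CCGCCC.
Nrp2, chr1:62703067-62703284, plus strand: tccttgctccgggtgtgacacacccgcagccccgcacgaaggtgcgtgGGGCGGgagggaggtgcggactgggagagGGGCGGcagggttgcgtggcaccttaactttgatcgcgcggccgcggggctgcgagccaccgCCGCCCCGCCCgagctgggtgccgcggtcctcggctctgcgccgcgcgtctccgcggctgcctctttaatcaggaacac
Plxnb2, chr15:89180789-89181038, minus strand: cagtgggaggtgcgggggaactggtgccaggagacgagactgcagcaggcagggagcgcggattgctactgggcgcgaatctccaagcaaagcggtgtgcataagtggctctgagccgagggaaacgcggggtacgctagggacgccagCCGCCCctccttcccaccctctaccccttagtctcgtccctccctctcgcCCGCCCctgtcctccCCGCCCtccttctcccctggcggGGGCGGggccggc
Sema7a, chr9:57939862-57940111, plus strand: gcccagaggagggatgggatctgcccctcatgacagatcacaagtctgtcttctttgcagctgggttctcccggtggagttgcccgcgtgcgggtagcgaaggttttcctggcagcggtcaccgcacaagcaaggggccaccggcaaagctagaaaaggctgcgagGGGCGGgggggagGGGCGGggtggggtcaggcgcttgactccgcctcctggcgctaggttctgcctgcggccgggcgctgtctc
The Nrp2 stretch held 28 CpG and 4 GC boxes in 218 bases, the Plxnb2 stretch 20 CpG and 4 GC boxes in 250 bases, and the Sema7a stretch 17 CpG and 2 GC boxes in 250 bases.

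Several members are also neighbours in the genome. Efna3 and Efna4 lie 10.4 kb apart on chromosome 3, and Efna1 lies 32.8 kb from Efna3. Sema3b and Sema3f lie 72.3 kb apart on chromosome 9, and Epha8 and Ephb2 93.4 kb apart on chromosome 4. Sema3a lies 423 kb from Sema3e on chromosome 5. Footprint differences of neighbours went in opposite directions in some pairs and in the same direction in others. Sema3a had a footprint log2 fold change of 0.36 and Sema3e of -0.57, while Sema3d, 536 kb from Sema3a, was at 0.05. Efna3 had a footprint log2 fold change of 0.99. Its neighbour Efna1, too low in footprints to test, averaged 0.132 CPM in KO and 2.10 CPM in WT. These means rest on 1 count in all KO libraries together, which were shallower in sum, and 23 in all WT libraries together.

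The mRNA comparison asks whether the transcripts of guidance genes differ between KO and WT brain. Values per library are CPM, counts scaled to the TMM library size, and fold changes are log2 of KO over WT from edgeR. Efnb3 mRNA had the lowest p of all members, with every KO library below every WT library, and Plxnb2 mRNA differed by a smaller step with tight replicates. Nrp2, Sema6d and Sema5a had lower means in KO, and Ephb3, Ephb2, Ephb6, Efna5 and Sema7a higher means, with groups that overlapped.

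None of the 49 members tested passed a Benjamini-Hochberg adjusted p under 0.05 in edgeR, and neither did any of the 13058 genes tested (0%). At an unadjusted p under 0.05 edgeR counted 5 of 49 members lower in KO, against 5.22% of all genes, and 2 of 49 higher in KO, against 5.32%. Taking both directions, 7 of 49 members stood against 10.5% of all genes. Groups did not overlap for 2 members that were lower in KO, against 2.74% of all genes, and for 0 that were higher, against 2.85%. DESeq2, the alternative test, called 2 of 42 members with an adjusted p lower in KO, against 0.328% of its 9763 genes, and 0 higher, against 0.44%. The 2 were Efnb3 (adjusted p = 0.000198) and Plxnb2 (adjusted p = 0.0394), and limma on RPKM called 0 members. Of the 49 members, 25 had log2 fold changes above 0 (48.6% of all genes) and 24 below 0 (51.4% of all genes). The median log2 fold change was 0.00 over members and -0.01 over all genes.

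Among the ephrins, Efnb3 stood out. It lies on the minus strand of chromosome 11 at 69554092 to 69560205 (mm10) and encodes ephrin-B3, which in mice stops axons of the corticospinal tract from crossing back over the midline. Its mRNA was at 79.9, 90.8, 92.7 and 106 CPM in KO libraries 1 to 4, against 152, 163, 122 and 136 CPM in WT libraries 1 to 4. Every KO library lay below every WT library. The log2 fold change was -0.63 ± 0.11 (SE, edgeR adjusted p = 0.223), and -0.48 without WT libraries 1 and 2. Efnb2, the arterial ephrin-B2, was at 72.6 ± 7.0 CPM in KO and 72.4 ± 6.21 CPM in WT. Efna5, a lipid-anchored ephrin of retinal mapping, had 21.6, 26.7, 20.9 and 16.9 CPM in KO libraries, against 17.3, 16.1, 19.4 and 18.3 CPM in WT libraries. Its groups overlapped through KO library 4, and the log2 fold change came to 0.28 ± 0.13 (SE, edgeR adjusted p = 0.495). It was 0.16 without KO library 2 and 0.19 without WT libraries 1 and 2. Summed over the class, ephrin-B mRNA stood at 44.4 ± 3.49 RPKM in KO and 58.9 ± 5.79 RPKM in WT (SD, n = 4 each). The lower sum in KO came from Efnb3 alone, at 28.8 RPKM in KO and 44.1 RPKM in WT. Efnb1 averaged 5.11 RPKM in KO and 4.48 RPKM in WT, and Efnb2 10.5 RPKM in KO and 10.4 RPKM in WT.

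In the EphB class, 4 of the 5 genes tested had log2 fold changes above 0, with a class median of 0.34. Without WT libraries 1 and 2, Ephb1 changed sign from 0.09 to -0.13, and Ephb4 moved from -0.02 to -0.18. Ephb3, which acts with Ephb2 in spine formation and axon crossing in mice, had 23.3, 29.0, 26.7 and 22.9 CPM in KO libraries, against 15.2, 12.8, 21.3 and 24.2 CPM in WT libraries. WT libraries 1 and 2 were the lowest, and WT library 4 reached the KO range. The log2 fold change was 0.47 ± 0.18 (SE, edgeR adjusted p = 0.431), and 0.16 without WT libraries 1 and 2. Ephb2 had 18.2, 27.6, 25.2 and 18.5 CPM in KO libraries, against 18.0, 13.1, 17.1 and 20.2 CPM in WT libraries. KO libraries 2 and 3 lay above the rest while libraries 1 and 4 lay in the WT range, and the log2 fold change was 0.38 ± 0.17 (SE, edgeR adjusted p = 0.462), or 0.26 without WT libraries 1 and 2. Ephb6 had 138, 134, 132 and 101 CPM in KO libraries, against 70.6, 90.9, 103 and 135 CPM in WT libraries. Its spread ran across the groups, and the log2 fold change, 0.34 ± 0.17 (SE, edgeR adjusted p = 0.526), became 0.08 without WT libraries 1 and 2. The 7 EphA genes tested ranged from -0.11 to 0.28 with a median of 0.07, among them Epha4 at 0.17 and Epha7 at 0.07.

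Semaphorin mRNA showed differences in both directions. Of 19 semaphorins tested, 12 had log2 fold changes below 0, and the range was -0.26 to 0.45. Sema6d, a membrane-spanning ligand of plexin A1, had 60.8, 74.1, 65.3 and 74.6 CPM in KO libraries, against 92.1, 84.4, 79.0 and 74.5 CPM in WT libraries. The groups touched only where KO library 4 met WT library 4, and the log2 fold change was -0.26 ± 0.09 (SE, edgeR adjusted p = 0.406), or -0.16 without WT libraries 1 and 2. Sema5a, a membrane-spanning semaphorin with thrombospondin repeats, had 49.3, 52.3, 54.6 and 45.0 CPM in KO libraries, against 60.6, 66.8, 63.6 and 49.0 CPM in WT libraries. WT library 4 lay among the KO libraries and the other 3 above them, and the log2 fold change came to -0.25 ± 0.10 (SE, edgeR adjusted p = 0.442), or -0.16 without WT libraries 1 and 2. Sema7a had 234, 255, 183 and 177 CPM in KO libraries, against 109, 105, 226 and 180 CPM in WT libraries. Its log2 fold change, 0.45 ± 0.23 (SE, edgeR adjusted p = 0.529), became 0.07 without WT libraries 1 and 2.

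Among the receptors of semaphorins, Plxnb2 and Nrp2 were lower in the mean. Plxnb2, at 89155549 to 89180788 on the minus strand of chromosome 15, encodes plexin B2, a receptor of class 4 semaphorins that acts in neural tube closure in mice. Its mRNA had 52.5, 49.8, 50.0 and 51.8 CPM in KO libraries, against 60.7, 63.2, 57.9 and 61.9 CPM in WT libraries. The groups were narrow and did not overlap, and the log2 fold change was -0.26 ± 0.06 (SE, edgeR adjusted p = 0.337), or -0.23 without WT libraries 1 and 2. Nrp2, at 62703285 to 62818695 on the plus strand of chromosome 1, encodes neuropilin 2, the co-receptor that binds Sema3f. It had 32.5, 33.3, 51.8 and 52.2 CPM in KO libraries, against 78.2, 70.1, 54.6 and 45.9 CPM in WT libraries. KO libraries 3 and 4 lay above WT library 4, and the log2 fold change, -0.55 ± 0.20 (SE, edgeR adjusted p = 0.407), became -0.24 without WT libraries 1 and 2. Plxnc1, the plexin that binds Sema7a, was at -0.38, and at -0.04 without WT libraries 1 and 2, and the 9 plexins tested had a median of -0.05.

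**Figure D2:**
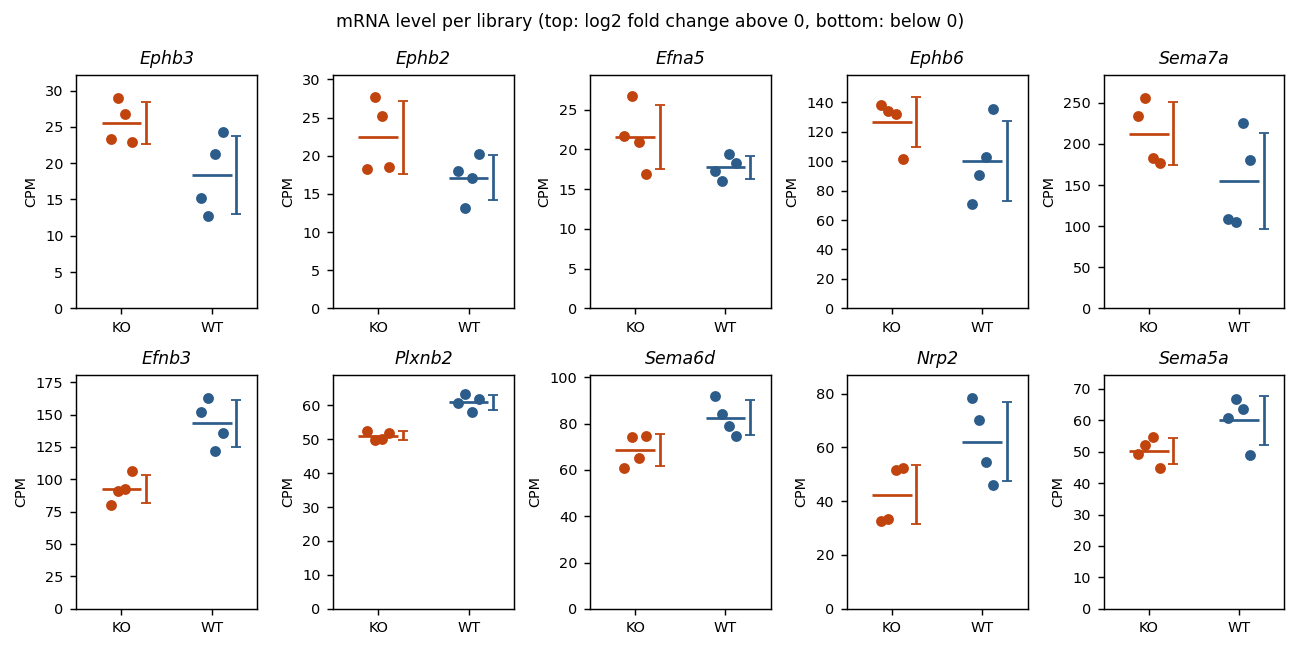
mRNA level in CPM of the 10 members with the lowest p above and below 0, each point 1 library, with the mean (line) and SD (bar) of the 4 KO and the 4 WT libraries. Efnb3 and Plxnb2 are the 2 genes whose KO and WT points do not overlap, and Nrp2 has 1 WT library in the KO range and the other 3 above it, and Sema7a has 2 WT libraries below the KO range.

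Markers of cell types and regions differed beside these genes, in several lists. Every marker of the 12 lists had mRNA counts, and in footprints all but Gabra6, a cerebellar granule cell gene, had counts. The 12 mature oligodendrocyte markers summed to 4734 to 6530 CPM of mRNA in KO libraries and 7331 to 7995 CPM in WT libraries, and 12 of 12 had log2 fold changes below 0 (median -0.42). Markers of oligodendrocyte precursors summed to 349 to 440 CPM in KO and 472 to 489 CPM in WT. The 10 cortical projection neuron markers summed to 2742 to 3716 CPM in KO and 2162 to 3066 CPM in WT, and 10 of 10 had log2 fold changes above 0 (median 0.42). Choroid plexus and ependyma markers had 10 of 10 below 0 (median -1.01), with sums of 64.0 to 1191 CPM in KO and 333 to 1183 CPM in WT. Striatal projection neuron markers had 8 of 8 below 0 (median -0.40), with sums of 446 to 1678 CPM in KO and 342 to 1801 CPM in WT, and hippocampal markers 5 of 5 tested (median -0.29), with sums of 148 to 231 CPM in KO and 167 to 253 CPM in WT. Hypothalamic markers had 6 of 6 tested below 0 (median -3.41), and cerebellar markers 3 of 4 tested, with sums of 208 to 217 CPM in KO and 234 to 362 CPM in WT. Lists of interneurons, astrocytes, microglia and vessels had medians of -0.09 to -0.01. In bulk tissue, fewer cells of a type and less RNA per cell cannot be told apart. The part of these markers in the values of the members was not tested.

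The footprint comparison asks whether the ribosome-bound RNA of guidance genes differs. Epha7 and Nrp2 footprints were higher in every KO library than in any WT library, and Sema3e and Sema7a footprints were lower in every KO library. Efna3 and Efnb2 had higher means in KO from few counts. None of these differences passed the adjusted threshold.

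In edgeR 0 of 39 members tested passed an adjusted p under 0.05, as did 0 of the 8476 genes tested (0%). At an unadjusted p under 0.05, 4 of 39 members were higher in KO, against 2.88% of all genes, and 1 of 39 was lower in KO, against 2.64%. In both directions together 5 of 39 members stood against 5.52% of all genes. Groups did not overlap in 2 members that were higher (1.57% of all genes) and 2 that were lower (2.04% of all genes). DESeq2 called 0 members, 4 genes higher in KO of 8472 (0.0472%) and 0 lower (0%), and limma on RPKM called 0 members. Fold changes were above 0 for 21 of 39 members (49.6% of all genes) and below 0 for 18 (50.4%). The median log2 fold change was 0.01 over members and -0.00 over all genes, with a range of -0.69 to 0.99 over members. The median standard error was 0.26 for footprints and 0.14 for mRNA, so a footprint difference had to be larger to stand apart.

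Epha7, at 28813131 to 28967499 on the plus strand of chromosome 4, encodes an Eph receptor with roles in cortical neuron and synapse development in mice. Its footprints had 52.5, 55.9, 69.2 and 69.7 CPM in KO libraries, against 46.4, 47.1, 44.3 and 35.1 CPM in WT libraries. The groups did not overlap, and the log2 fold change was 0.51 ± 0.17 (SE, edgeR adjusted p = 0.863), or 0.63 without WT libraries 1 and 2. Epha7 mRNA was at 95.1 ± 11.8 CPM in KO and 90.4 ± 14.1 CPM in WT (SD, n = 4 each). The other EphA footprints ranged from -0.32 in Epha10 to 0.19 in Epha6, and Epha4 was at -0.04.

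Ephrin footprints rest on few counts. Efna3, a lipid-anchored ephrin known from astrocytes of the mouse hippocampus, had 15, 32, 4 and 13 footprint counts in KO libraries, against 10, 23, 22 and 21 in WT libraries. Scaled by depth these were 18.3, 16.9, 7.69 and 12.8 CPM in KO libraries and 5.66, 7.13, 8.05 and 7.91 CPM in WT libraries. KO library 3, the shallowest, lay inside the WT range, and the log2 fold change was 0.99 ± 0.36 (SE, edgeR adjusted p = 0.863). Efnb2 had 31.8, 16.4, 25.0 and 26.5 CPM in KO libraries, against 11.9, 13.6, 20.1 and 15.5 CPM in WT libraries. KO library 2 lay below WT library 3, and the log2 fold change was 0.66 ± 0.29 (SE, edgeR adjusted p = 0.881). Efna5 had only 1, 17, 1 and 7 footprint counts in KO libraries, against 21, 26, 28 and 16 in WT libraries. Its log2 fold change, -0.69 ± 0.50 (SE, edgeR adjusted p = 0.892), has a 95% interval from -1.76 to 0.38. Leaving out KO library 1 gave -0.40, and leaving out KO library 2 gave -1.26. Efnb3, whose mRNA groups did not overlap, had footprints at 18.3, 22.2, 32.7 and 30.4 CPM in KO libraries and 21.5, 26.1, 32.6 and 12.1 CPM in WT libraries, with overlap throughout.

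Semaphorin footprints were led by Sema3e, a secreted ligand that binds plexin D1 directly, without a neuropilin. It had 23.2, 26.9, 28.8 and 20.6 CPM in KO libraries, against 32.9, 36.9, 39.5 and 37.3 CPM in WT libraries. No KO library reached the lowest WT library, and the log2 fold change was -0.57 ± 0.20 (SE, edgeR adjusted p = 0.863), or -0.63 without WT libraries 1 and 2. Sema3e mRNA was at 45.3 ± 8.88 CPM in KO and 43.1 ± 7.79 CPM in WT. Sema7a footprints were at 63.5, 60.7, 59.6 and 57.9 CPM in KO libraries, against 64.6, 73.2, 69.5 and 76.5 CPM in WT libraries. The groups missed each other by about 1 CPM, and the log2 fold change was -0.23 ± 0.14 (SE, edgeR adjusted p = 0.881). Sema4a, a membrane-spanning semaphorin also known from immune cells, had 34.2, 30.6, 15.4 and 26.5 CPM in KO libraries, against 41.9, 35.7, 25.3 and 34.7 CPM in WT libraries. Sema6b had 40.3, 51.7, 19.2 and 37.3 CPM in KO libraries, against 22.7, 36.3, 27.1 and 35.1 CPM in WT libraries. Both genes overlapped between groups, and the 15 semaphorins tested had a median log2 fold change of -0.05.

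Nrp2 was the semaphorin receptor with the largest footprint difference. It had 23.2, 23.7, 57.7 and 30.4 CPM in KO libraries, against 14.7, 17.4, 21.96 and 19.2 CPM in WT libraries, from 19 to 45 counts per KO library and 26 to 60 per WT library. Every KO library lay above every WT library, and KO library 3 stood far above the other 3. The log2 fold change was 0.79 ± 0.30 (SE, edgeR adjusted p = 0.875), and 0.49 without KO library 3. Nrp1, the neuropilin of Sema3a, was at 0.01. The 9 plexins lay in a narrow band from -0.23 to 0.12. The lowest of them was Plxna2, a receptor of class 6 semaphorins, at 67.2, 76.5, 75.0 and 55.9 CPM in KO libraries, against 66.8, 84.97, 85.6 and 84.0 CPM in WT libraries. WT library 1 lay within the KO range and the other 3 above it.

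**Figure D3:**
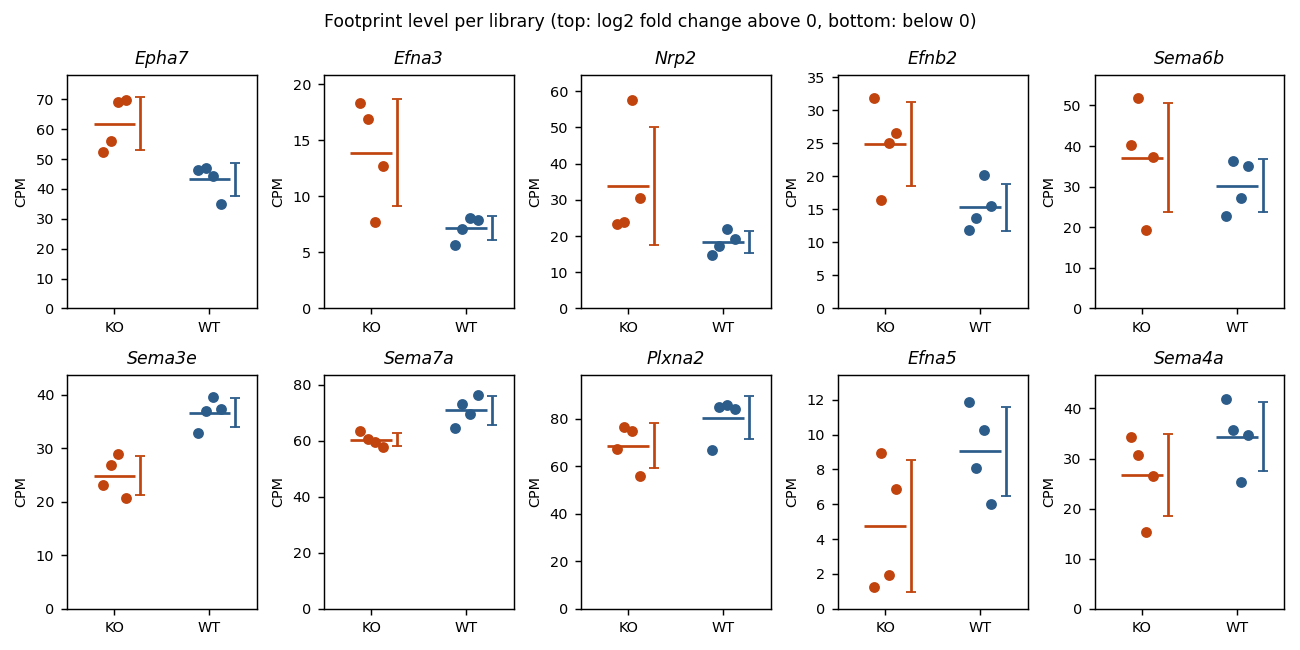
Footprint level in CPM of the 10 members with the lowest p above and below 0, each point 1 library, with the mean (line) and SD (bar) of the 4 KO and the 4 WT libraries. Epha7 and Nrp2 have every KO point above the WT points, and Sema3e and Sema7a every KO point below them.

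The 14 members with too few footprints to test had from 0 to 61 counts summed over the 4 libraries of a group. Efna4 had 0 counts in both groups. Efna1, an ephrin known from vessels, had 1 count in KO and 23 in WT, and Epha3, a receptor of ephrin-A5, 10 counts in KO and 61 in WT, from KO libraries that were shallower in sum. In CPM, Efna1 averaged 0.132 ± 0.264 CPM in KO and 2.10 ± 1.46 CPM in WT, and Epha3 averaged 2.65 ± 1.36 CPM in KO and 5.74 ± 1.14 CPM in WT (SD, n = 4 each), and the Efna1 values rest on 0 or 1 count per KO library. Their mRNA overlapped between groups. Sema3f, the ligand of neuropilin 2, had 16 counts in KO and 47 in WT.

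Translational efficiency, the footprint level relative to the mRNA level of the same gene, was compared in edgeR with a term for genotype by kind of library. It asks whether ribosome loading per transcript differs. Nrp2, Efna3, Efnb3, Efnb2 and Epha7 had higher efficiency in KO at an unadjusted p under 0.05, and Sema3e and Sema7a lower. Among these, the mRNA and footprint differences had opposite signs for Nrp2 and Sema7a. The same held for Efnb3 (-0.63 and 0.13) and Sema3e (0.07 and -0.57), and for Efna5, Ephb3 and Ephb6, named below. Opposite signs were not particular to these genes. Plxnc1 was at -0.38 and 0.12, Plxna2 at 0.14 and -0.23, and Plxnd1 at 0.16 and -0.22. Other members shared a sign, such as Sema6d at -0.26 and -0.21. Choosing genes by a low p for efficiency also favours opposite signs. Without WT libraries 1 and 2, Sema7a mRNA was at 0.07 and Nrp2 mRNA at -0.24.

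In edgeR 0 of 39 members passed an adjusted p under 0.05, and 0 of 9673 genes did (0%). At an unadjusted p under 0.05, 5 of 39 members were higher, against 5.21% of all genes, and 2 of 39 were lower, against 5.67%. In both directions 7 of 39 stood against 10.9% of all genes. DESeq2 called 1 of 39 members higher, against 0.879% of 9672 genes, and 0 lower, against 0.61%, and limma on RPKM called 0. That 1 member was Nrp2, with a DESeq2 log2 fold change of 1.37 (adjusted p = 0.0296). Changes were above 0 for 25 of 39 members (49.8% of all genes) and below 0 for 14 (50.2%). The median over members was 0.06, and over all genes -0.00. With a median standard error of 0.30, the intervals of most members covered 0.

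Nrp2 had a log2 change in efficiency of 1.29 ± 0.36 (SE, edgeR adjusted p = 0.203), and of 0.81 without WT libraries 1 and 2. Its ratio of footprint to mRNA RPKM was 0.769 in KO and 0.287 in WT. Mean mRNA in KO was lower while mean footprints were higher. Efna3 followed at 0.91 ± 0.30 (SE, edgeR adjusted p = 0.263), with ratios of 0.273 in KO and 0.154 in WT. Its mRNA was at 49.4 ± 4.50 CPM in KO and 45.6 ± 6.66 CPM in WT, and its footprints at 13.9 ± 4.77 CPM in KO and 7.19 ± 1.10 CPM in WT (SD, n = 4 each). Efnb3 was at 0.75 ± 0.31 (SE, edgeR adjusted p = 0.383), where mRNA was lower in KO and footprints overlapped. Efnb2 was at 0.62 ± 0.27 and Epha7 at 0.44 ± 0.21, both with overlapping mRNA levels.

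On the lower side, Sema3e had -0.63 ± 0.25 (SE, edgeR adjusted p = 0.368) and Sema7a -0.68 ± 0.29 (SE, edgeR adjusted p = 0.403). The Sema7a ratio was 0.276 in KO and 0.445 in WT, and its log2 change was -0.33 without WT libraries 1 and 2. Efna5 was at -0.86 ± 0.44, Ephb6 at -0.59 ± 0.31 and Ephb3 at -0.68 ± 0.36, each with an interval that reached past 0. Without WT libraries 1 and 2 the Ephb6 value was -0.23 and the Ephb3 value changed sign to 0.06. By class, the ephrin-B median was 0.62 over 3 genes and the EphB median -0.59 over 3 genes. The EphB values without WT libraries 1 and 2 were 0.40 for Ephb1, 0.06 for Ephb3 and -0.23 for Ephb6. With all libraries Efnb1 was at 0.005 ± 0.53 (SE). It had 1, 16, 2 and 5 footprint counts in KO libraries and was too low for the footprint comparison. The ephrin-B values without WT libraries 1 and 2 were 0.26 for Efnb1, 0.37 for Efnb2 and 0.64 for Efnb3. Plexins had a median of 0.06 over 8 genes and semaphorins of 0.09 over 16 genes, 11 of them above 0.

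**Figure D4:**
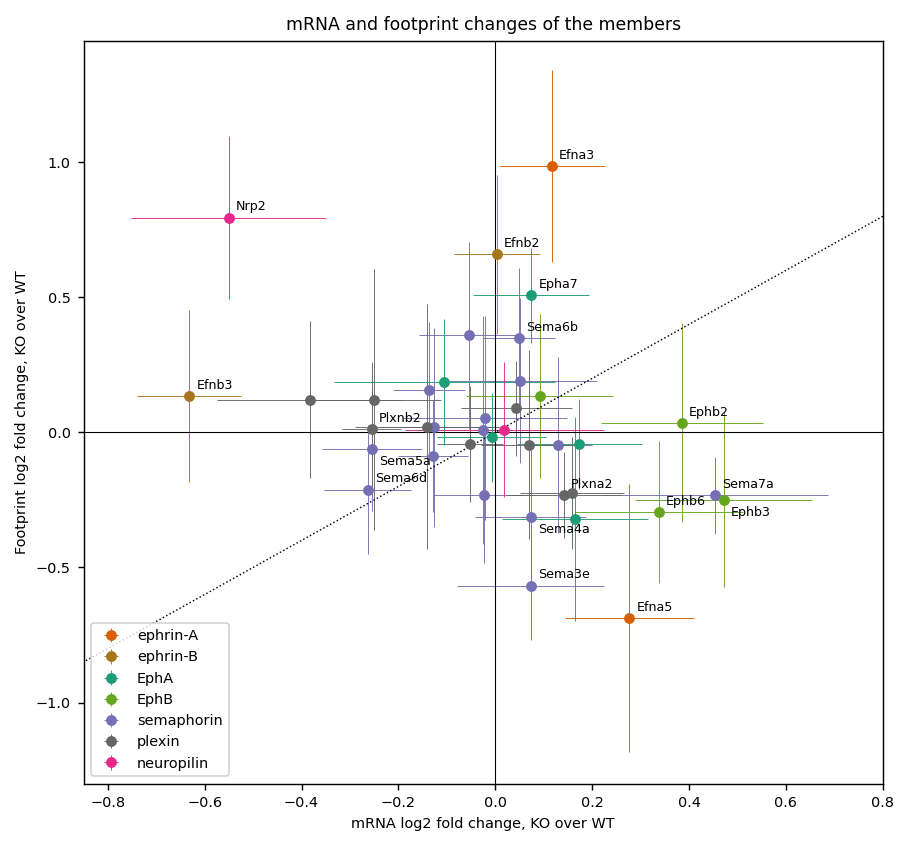
log2 fold change of KO over WT in mRNA (x axis) and in footprints (y axis) for the members tested in both, with bars of 1 standard error (edgeR) and a dotted line where both are equal. Nrp2 lies far above the line at -0.55 in mRNA and 0.79 in footprints, and Sema7a below it at 0.45 in mRNA and -0.23 in footprints.

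**Figure D5:**
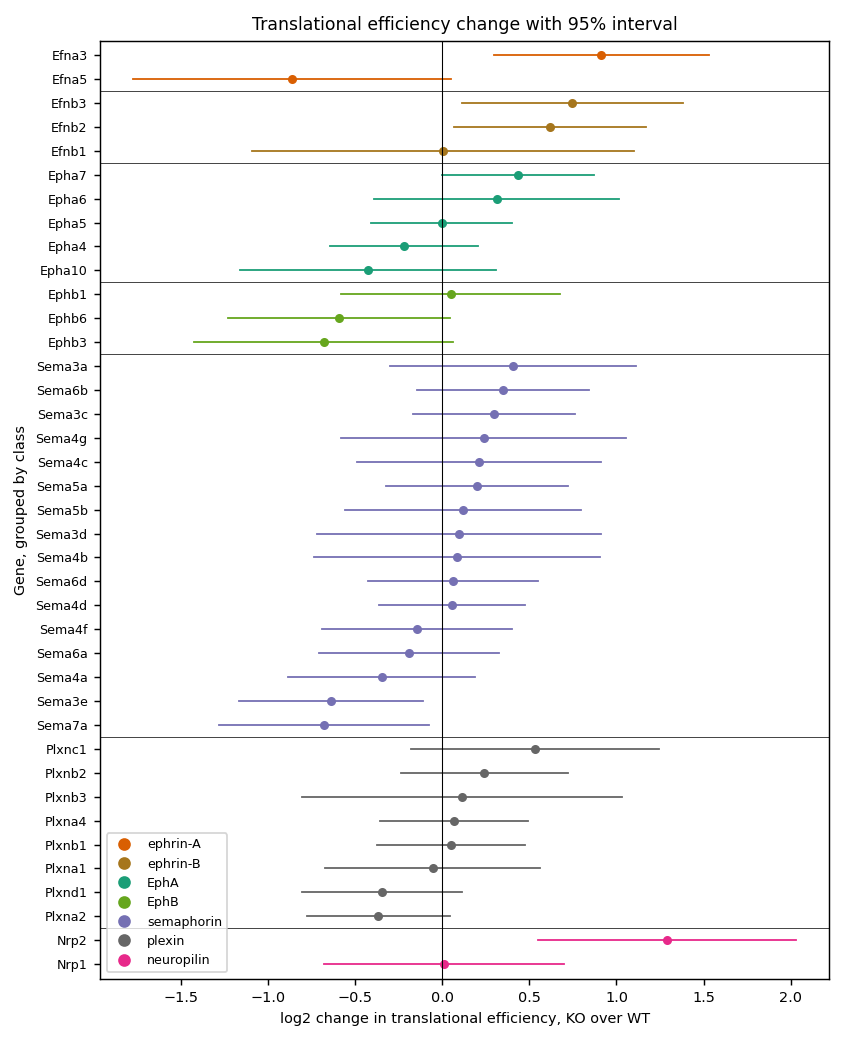
log2 change in translational efficiency, KO over WT, for the 39 members tested, with the 95% interval of edgeR as a bar and members grouped by class. Nrp2 at 1.29, Efna3 at 0.91, Efnb3 at 0.75, Efnb2 at 0.62 and Epha7 at 0.44 have intervals above 0, and Sema3e at -0.63 and Sema7a at -0.68 have intervals below 0.

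Some lists of region and cell type markers also differed between the 2 kinds of library, and others differed little. Mature oligodendrocyte markers summed to 1828 to 2338 CPM of footprints in KO and 2608 to 3107 CPM in WT. Their median change in efficiency was 0.07. Lists of oligodendrocyte precursors, interneurons, astrocytes and microglia had medians of -0.04 to 0.06 in efficiency. Cortical projection neuron markers, higher in KO mRNA, summed to 1228 to 1633 CPM of footprints in KO and 1162 to 2265 CPM in WT, and 10 of 10 had a negative change in efficiency (median -0.69). Striatal projection neuron markers had 8 of 8 positive changes (median 0.68). The 8 hypothalamic markers summed to 4.86 to 12.8 CPM of mRNA in KO and 5.72 to 135 CPM in WT, but to 70.2 to 118 CPM of footprints in KO and 5.27 to 71.9 CPM in WT. A difference in the tissue that went into the 2 kinds of library and a difference in translation cannot be told apart here.

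For 4 ligand and receptor pairs the log2 fold changes stand side by side. The first pair is given in footprints and the rest in mRNA, with the other kind of library after them. Sema3e footprints were at -0.57 and those of its receptor Plxnd1 at -0.22 (SE 0.20, edgeR adjusted p = 0.924). Without WT libraries 1 and 2 they were at -0.63 and -0.03. Sema7a mRNA was at 0.45 and Plxnc1 mRNA at -0.38, and without WT libraries 1 and 2 they were at 0.07 and -0.04. Efnb3 mRNA was at -0.63, while its receptors Epha4 and Ephb3 had mRNA values of 0.17 and 0.47. Without these 2 libraries Efnb3 was at -0.48, Epha4 at 0.06 and Ephb3 at 0.16. Nrp2 mRNA was at -0.55 and Sema3f mRNA at -0.06, and without these 2 libraries they were at -0.24 and -0.19. In the other kind of library, Sema3e and Plxnd1 mRNA were at 0.07 and 0.16. Sema7a and Plxnc1 footprints were at -0.23 and 0.12, and those of Efnb3, Epha4 and Ephb3 at 0.13, -0.04 and -0.25. Nrp2 footprints were at 0.79, and Sema3f was too low in footprints to test. The pairs were chosen after their values were seen and were not tested as pairs.

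Genes that act with these ligands and receptors were read from the same edgeR fits. Of 50 effectors downstream of ephrins and semaphorins, 42 were tested in footprints, 49 in mRNA and 41 in efficiency, and 0 passed the adjusted edgeR threshold in each. At an unadjusted p under 0.05, 4 of 49 effectors were higher in KO mRNA (5.32% of all genes) and 3 lower (5.22% of all genes), with a median log2 fold change of 0.01. Pak1, a kinase that drives actin changes below small GTPases, was at 0.25 ± 0.07 in mRNA, Kalrn, an exchange factor for Rac, at 0.37 ± 0.13, and Rgs3, which binds ephrin-B tails, at -0.35 ± 0.14 (SE). In footprints 1 of 42 effectors was higher (2.88% of all genes) and 2 lower (2.64%). Tiam1, another Rac exchange factor, was at 0.60 ± 0.19, Mical2, an actin oxidase of the family below plexins, at -0.40 ± 0.14, and Cdk5, a neuronal kinase of semaphorin signalling, at -0.47 ± 0.17 (SE). In efficiency 1 of 41 effectors was higher (5.21% of all genes) and 7 lower (5.67%), with a median of -0.06.

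Of 22 co-receptors and proteases, 13 were tested in footprints, 17 in mRNA and 13 in efficiency, and 0 passed in each. At an unadjusted p under 0.05, 1 of 13 was higher in footprints (2.88% of all genes), 1 of 13 higher in efficiency (5.21%), 0 were lower in either, and 0 of 17 passed in mRNA in either direction. The protease Adam17, which sheds membrane proteins, was at 0.87 ± 0.35 in footprints and 1.02 ± 0.33 in efficiency (SE). Of 38 other guidance genes, 32 were tested in footprints, 35 in mRNA and 34 in efficiency, with 0 past the adjusted threshold. At an unadjusted p under 0.05, 4 of 35 were higher in mRNA (5.32% of all genes) and 2 lower (5.22%). Rtn4r, the Nogo receptor, was at 0.59 ± 0.15, its partner Lingo1 at 0.35 ± 0.08, Ntn1, the chemoattractant netrin 1, at -0.47 ± 0.18, and its receptor Unc5b at -0.30 ± 0.11 (SE). In footprints 0 of 32 were higher (2.88% of all genes) and 2 lower (2.64%), namely Flrt1, a ligand of Unc5 receptors, at -0.68 ± 0.26, and Slit3, a ligand of Robo receptors, at -0.44 ± 0.18 (SE). In efficiency 1 of 34 was higher (5.21% of all genes) and 7 lower (5.67%), among them Ntng2, netrin G2, at -1.32 ± 0.47 (SE).

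Some members share ground with other genes in the table. Epha1, with 68 mRNA counts over all libraries, overlaps Zyx, with 4973. Nrp2 overlaps the antisense gene Gm29083, with 48 mRNA counts against 6929 for Nrp2, and Efna3 overlaps Gm15998, with 47 against 6300. Whether the counting used strand is not given in the sources used here, so reads of these partners cannot be told apart, and for Nrp2 and Efna3 the partners' counts were small.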

How the data were processed

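Footprint and mRNA libraries of brain, 4 KO and 4 WT of each kind, were read from tables deposited by the authors. Per the file headers, the authors' gene table holds raw counts for all Ensembl genes with gene lengths in bases, and values were whole numbers with unequal totals. The deposited RPKM tables were made by the authors, and dividing counts by length and RPKM gave a library size that equalled a DESeq2 size factor, multiplied by the geometric mean of the totals, in each kind. Per the submitters' processing notes, TopHat2 and mm10 were named with neither version nor role. The counter, annotation release and filters are not given in the sources used here. Columns were assigned to samples by name, since mRNA columns carry the footprint libraries' names.

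The fits used edgeR 4.0.16 (TMM, quasi-likelihood) under R 4.3.3, KO over WT, with Benjamini-Hochberg adjustment over all genes tested. Footprint genes were kept by filterByExpr (minimum count 10), mRNA genes where RPKM averaged 1 or more, and efficiency genes where it did so in footprints and in mRNA. Named members were the 5 with the lowest p in each direction per comparison and the 3 highest ligands and receptors. Of each pathway list, genes came from the 3 with the lowest p per direction. Members and lists were chosen with earlier results of these data known. Alternatives were DESeq2 1.42.0, limma 3.58.1 on log2(RPKM + 0.1) and log2(RPKM + 1), library size without TMM, protein-coding genes alone, other filters, a replicate block, and leaving out libraries. The scripts were tested on simulated data. Same-number KO and WT libraries correlated at -0.247 to 0.075 in footprints and -0.238 to 0.031 in mRNA, so the numbers were not taken to pair samples.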

Additional observations from a re-analysis of the deposited data

Results flagged for a closer look

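Of 80 groups of 4 libraries, from the 20 members described in every library, 3 held a value that stood far from the other 3, with a gap to the nearest value above Dixon's critical share of the range. Over all 53 members, 14 of 210 such groups did, and chance gives about 1 in 20. The cause was not tested. Epha4 mRNA was at 215 CPM in WT library 3, against 155 to 159 CPM in the other WT libraries. Ephb6 mRNA was at 101 CPM in KO library 4, against 132 to 138 CPM in the other KO libraries. Plxna2 footprints were at 66.8 CPM in WT library 1, against 84.0 to 85.6 CPM in the other WT libraries.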

How the results depend on the processing

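The number of members past the adjusted threshold was 0 in footprints under all 17 alternatives. In mRNA it was 0 in edgeR, 2 with DESeq2 (Efnb3 and Plxnb2) and 1 without a filter on low counts (Efnb3, edgeR adjusted p = 0.0143). In translational efficiency it was 0 in edgeR and 1 with DESeq2 (Nrp2). Leaving out each library in turn gave 0 to 0 members in footprints, in mRNA and in efficiency. The replicate block called 0 members in all 3 comparisons, and so did a block on library name in efficiency, chosen after seeing the data. Same-number libraries share no more than a number, and 1 of 8 was closest to its own number. Of 520 values of the members named in a comparison, under alternatives, 515 kept their direction and side of the threshold, 4 passed it newly and 1 changed sign: the efficiency of Ephb3 was 0.0556 on the log2 scale without WT libraries 1 and 2, against -0.68 with them. Over all genes, calls in footprints were 4 with DESeq2, 3 on library size, 3 on protein-coding genes alone and 86 without a filter, against 0. In mRNA they were 75 with DESeq2, 24 without a filter and 2 without KO library 4, against 0. In efficiency they were 144 with DESeq2, 5 with the library-name block, 4 without KO library 2, 2 without a filter, and 1 each on library size, with the replicate block, without WT library 3 and without WT library 4, against 0. Library size in place of TMM moved the median log2 change of all genes by -0.14 in footprints, -0.01 in mRNA and -0.11 in efficiency. Members at an unadjusted p under 0.05 moved more. On library size footprints had 0 higher and 0 lower, against 4 and 1, and efficiency 1 higher and 0 lower, against 5 and 2. Without WT libraries 1 and 2, mRNA had 0 higher and 2 lower, against 2 and 5, and efficiency 2 higher and 0 lower. In mRNA the counts ran from 0 to 6 higher and from 3 to 7 lower as single libraries were left out. In efficiency they ran from 2 to 4 higher and from 1 to 5 lower, and without a filter 8 were lower. Leaving out 1 library moved other named values by over 1.5 times: in footprints Plxna2 to -0.13 without KO library 4, Sema4a to -0.16 without KO library 3 and Sema6b to 0.13 without KO library 2 or 0.53 without KO library 3, in mRNA Ephb6 to 0.20 without WT library 1 or 0.52 without WT library 4 and Sema7a to 0.69 without WT library 3, and in efficiency Efna5 to -1.37 without KO library 2, Ephb3 to -0.34 without WT library 2 and Ephb6 to -0.36 without KO library 1. The cause was not tested. Footprint depth limits what can be called, and 14 members were too low to test.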
